A study of Mus musculus with 12 samples.

Results

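Mir137, the precursor gene of the microRNA miR-137, and 4 genes of the presynaptic terminal that have been reported as its targets, Cplx1, Nsf, Syn3 and Syt1, were followed through 12 RNA-seq libraries of mouse hippocampus. The 5 genes were taken by symbol from the deposited transcript tables and made up 25 of 137862 annotated transcripts and 5 of 54532 genes. The groups were Atrx conditional knockout (cKO) females, control females, cKO males and control males, each with 3 libraries from mice aged 3 months. Atrx encodes a chromatin remodeller of the SNF2 family, and cKO denotes its conditional deletion. No source used here names the Cre driver, the deleted exons or the alleles of the controls. The labels call every sample hippocampal cells, and the design text reads as 1 mouse per library without naming the pairs, so p-values stand for mice only as far as each library is 1 mouse.

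MicroRNAs are cut from a hairpin in a longer primary transcript by Drosha and then Dicer, and the mature strand guides Argonaute proteins to messages whose 3′ untranslated region (UTR) pairs with its seed, the bases near the 5′ end. This pairing lowers the stability or translation of the message. miR-137 is enriched in the brain and has been studied for its part in neuronal maturation and synaptic vesicle release. Synaptotagmin 1 (Syt1) is the calcium sensor of fast transmitter release, complexin 1 (Cplx1) binds the assembled SNARE complex, the ATPase Nsf takes spent SNARE complexes apart, and synapsin III (Syn3) is a phosphoprotein of synaptic vesicles.

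The sequences below show what miR-137 would pair with and which of the 4 genes carry that pairing. The hairpin lies on chromosome 3 at chr3:118433857-118433929 of GRCm38.p6, plus strand, and is 73 bases long. Mature and hairpin sequences are from RefSeq on GRCm38.p6, and capitals in the hairpin mark the mature 3′ strand. In the mature strands, capitals mark the seed, bases 2 to 8.
Mir137 hairpin: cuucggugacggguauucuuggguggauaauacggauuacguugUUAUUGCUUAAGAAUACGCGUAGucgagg
mmu-miR-137-3p: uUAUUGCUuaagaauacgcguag
mmu-miR-137-5p: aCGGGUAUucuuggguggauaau

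No other mature mouse microRNA among the 1679 listed shared the seed of miR-137-3p, so this family had 1 member. Sites that pair with the seed read AGCAATA on the transcript strand. They were searched, on that strand alone, in the longest 3′ UTR that the GENCODE M21 annotation gives each gene. The motif occurred in 2031 of 21027 genes with a 3′ UTR, or 9.66%. Among the 4 reported targets it occurred once in Cplx1, at base 625 of a 3′ UTR of 1575 bases, and once in Syt1, at base 216 of 2890. Each site is shown with 15 bases before it and 1 after it, from the GENCODE transcripts, with the 7 pairing letters in capitals.
Cplx1, chromosome 5: ggccagaggaaacacAGCAATAg
Syt1, chromosome 10: tctactcttcttttaAGCAATAt

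Neither site was followed by the A opposite base 1 that makes an 8-letter match. No AGCAATA was found in the 1456 bases of Nsf or the 3035 bases of Syn3, where a 6-letter match to bases 2 to 7 occurred 1 and 0 times. A missing match says only that these letters are not in these windows. The Syn3 window was that of Syn3-202, and the 3′ UTR of Syn3-201 was not searched. Within the windows searched, a 7-letter seed match was thus found in 2 of the 4 genes named as targets.

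The hairpin sits inside a host gene, Gm26871, which the annotation tags as a host of a noncoding RNA and which runs on the plus strand from base 118430324 to 118530022 of chromosome 3. Exon 3 of the spliced transcript Gm26871-202 and exon 1 of Gm26871-201 contain the whole hairpin. In Gm26871-202, 695 bases long, the hairpin begins at base 593, and a further transcript, Gm26871-205, overlaps it by 8 bases. The next annotated gene, the microRNA gene Gm24155, begins 792 bases further on and averaged 3.41 ± 2.38 deposited FPKM in cKO females, 0.957 ± 0.496 in control females, 0.829 ± 0.352 in cKO males and 0.480 ± 0.374 in control males (SD, n = 3 each). On the other side the nearest gene, 4921521D15Rik, ends 460331 bases away. The nearest protein-coding genes were Snx7 before and Dpyd after the hairpin. A read over the hairpin can thus be assigned to Mir137 or to Gm26871.

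**Figure D1:**
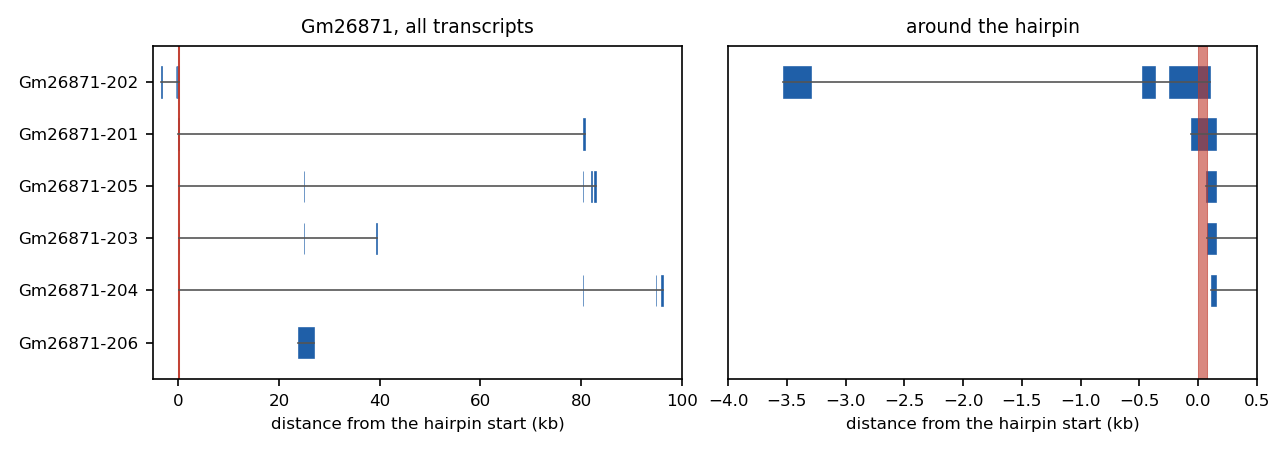
Map of the Gm26871 transcripts (blue boxes, exons; grey lines, introns) against the distance in kb from the start of the Mir137 hairpin (red band), over the whole gene at left and near the hairpin at right. The hairpin lies within the last exon of Gm26871-202 and the first exon of Gm26871-201.

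Library quality differed along the lines of sex and genotype. Depth was 1.16 to 4.26 Gb in cKO females, 3.60 to 7.90 Gb in control females, 3.66 to 8.64 Gb in cKO males and 7.12 to 8.19 Gb in control males. Background was read from 1461 olfactory and vomeronasal receptor genes, which hippocampus is not expected to use. Their median FPKM (mapped fragments, divided by transcript length and library size) was 0.304 to 2.25 in cKO females, 0.0863 to 0.600 in control females, 0.0178 to 0.286 in cKO males and 0.00664 to 0.0274 in control males. The cKO female libraries 2 and 3 stood apart at 1.97 and 2.25. Unless a value is called deposited, levels below are FPKM per gene after subtraction of this background and scaling over expressed protein-coding genes. Of the marker lists, 6 of 6 pyramidal neuron markers were detected at this filter, and the summed level of 5 choroid plexus markers, among them Ttr, ran from 26.3 to 41.1 in cKO females, 11.3 to 5116 in control females, 42.6 to 2307 in cKO males and 1239 to 3626 in control males. Their part in the results was not tested. Atrx fell by 0.87 on the log2 scale in cKO females (limma adjusted p = 0.0201). The adjusted p was 0.0768 without background subtraction, 0.0888 with median-of-ratios over all genes and 0.135 with replicate number as a block. Its log2 difference in cKO males was -0.47 (adjusted p = 1). Leaving out any of the 6 controls, cKO female 2 or cKO male 1 also ended the female call, at log2 values of -0.91 to -0.83 and adjusted p of 0.0525 to 0.138. All cKO libraries, at 5.73 to 6.76 in females and 6.44 to 8.73 in males, were below all controls of their sex, at 11.3 to 12.6 in females and 10.1 to 10.3 in males.

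Mir137 itself was at the limit of what these libraries can show. Its deposited FPKM was 0.00835, 0.440 and 0.0560 in cKO females, against 0.0526, 0.0206 and 0.0494 in control females. It was 0.238, 0.0449 and 0.0272 in cKO males, against 0.0820, 0.0364 and 0.0392 in control males. In each cKO group 1 library was high, female 2 and male 1. Of the other cKO libraries female 3 lay just above its controls, male 2 among them, and female 1 and male 3 below them, so the groups overlapped in both sexes. The bases assigned to the hairpin amounted to 0.0342 to 1.94 reads of 76 bases per library, under the 3 reads taken as a floor, and no fold change is given. The 0.440 FPKM of cKO female 2, the least deep library, came from 0.491 reads. Mir137 averaged 0.168 ± 0.237 FPKM in cKO females and 0.0409 ± 0.0176 FPKM in control females, and 0.104 ± 0.117 FPKM in cKO males and 0.0525 ± 0.0255 FPKM in control males (SD, n = 3 each). The exact two-sided permutation test gave p = 0.7 in females, 0.8 in males and 0.415 over both sexes, and the smallest p that 3 against 3 allows is 0.1. Without cKO female 2 the female difference in mean FPKM was -0.00869, against 0.127 with it, and without cKO male 1 the male difference was -0.0165, against 0.0510. After background subtraction all 6 female libraries and cKO male 2 were at 0. A difference in the precursor was not detectable at this depth, and the mature form of 23 bases, shorter than the reads, was not measured.

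Other precursors in the same tables show how far this holds for the class. Mir137 ranked 878 of 1194 genes with a microRNA symbol by mean deposited FPKM, and 73.4% had a higher mean. The median of the 1194 was 0.248 FPKM, and 56 genes were listed at 0 in all libraries. Mir137 averaged 0.0912 FPKM over the 12 libraries. Among the 1178 of these genes annotated as microRNAs it ranked 863. The 5 highest of all 1194 were Mir8114, Mir6236, Mir124a-1hg, Mir5117 and Mir99ahg, with means of 84.1, 25.2, 16.0, 12.5 and 11.9 FPKM. Of these Mir124a-1hg and Mir99ahg are host genes by symbol, and Mir5117 is annotated as a snoRNA. Only 82 of the 1194 genes passed the filter on low values.

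The host gene Gm26871 was measurable in every library, and its direction in females differed between settings. Deposited FPKM was 11.9, 15.1 and 17.9 in cKO females, against 14.6, 12.9 and 13.3 in control females, and 12.0, 13.9 and 7.59 in cKO males, against 11.1, 9.88 and 7.43 in control males. The highest value of females and of all 12 libraries was in cKO female 3, which also had the highest background. The subtracted levels divide a gene's bases by the length of its joined exons, while deposited FPKM is summed over transcripts. These scales thus differ by more than the subtraction. On the subtracted scale the levels were 1.72, 0.736 and 1.09 in cKO females, against 2.06, 1.84 and 1.71 in control females. They were 1.86, 1.85 and 1.21 in cKO males, against 1.55, 1.57 and 1.06 in control males. The cKO females 2 and 3, of highest background, were now the lowest females, cKO female 1 lay at the lowest control female, and cKO and control males overlapped. The log2 difference was -0.53 ± 0.25 in females (standard error; limma adjusted p = 0.183) and 0.17 ± 0.25 in males (adjusted p = 1), and neither passed the threshold of 0.05. Without subtraction the female value was 0.30, on the deposited FPKM 0.12 and with voom on estimated reads 0.08. Leaving out cKO female 1, which left the 2 high-background libraries as that group, gave -0.76 (adjusted p = 0.0185), in a fit that called 5557 of 14770 genes. The male effect minus the female effect was 0.71 ± 0.35 (adjusted p = 0.588). It was 0.93 without cKO female 1 (adjusted p = 0.0454), in a fit that called 2948 of 14770 genes for this contrast.

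The more abundant of the 2 transcripts that contain the whole hairpin, Gm26871-202, carried 46.4% to 52.7% of the gene's FPKM in cKO females, 41.6% to 60.9% in control females, 61.4% to 63.4% in cKO males and 66.2% to 72.6% in control males. Its deposited FPKM was 6.29, 7.26 and 8.33 in cKO females, against 7.22, 7.88 and 5.55 in control females. It was 7.54, 8.51 and 4.81 in cKO males, against 7.42, 6.54 and 5.39 in control males, and the groups overlapped in both sexes. On the scaled values, from which no background was taken, its log2 difference in females was 0.57 (adjusted p = 0.158) where the median over all 40218 transcripts was 0.67. The other one, Gm26871-201, carried 8.36% to 9.48% in cKO females, 7.88% to 11.9% in control females, 5.91% to 9.40% in cKO males and 4.53% to 9.68% in control males. Its log2 difference in females was 0.33 (limma adjusted p = 0.530).

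**Figure D2:**
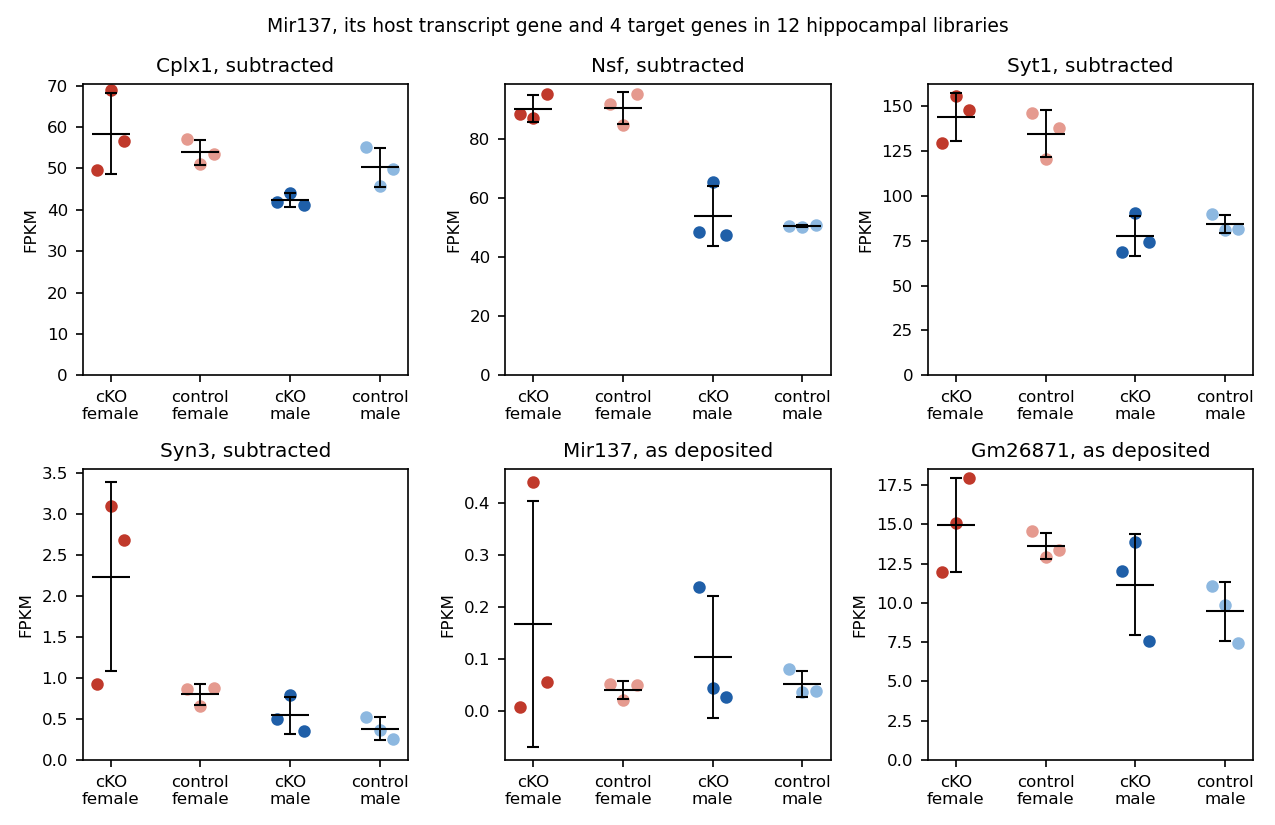
FPKM of the 3 target genes Cplx1, Nsf and Syt1 and of Syn3 after background subtraction and scaling, and deposited FPKM of Mir137 and its host gene Gm26871, by group. Points are libraries, and the line and bar are the mean and SD of 3. Nsf and Syt1 separate by sex, Syn3 is high in 2 cKO females, and Mir137 is high in 1 library of each cKO group.

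Of the 4 target genes, Cplx1, Nsf and Syt1 passed the filter on low values and Syn3 did not. None of the 3 was called between cKO and control in either sex, in the mean of both sexes or in the difference between the sexes (limma, Benjamini-Hochberg adjustment over 14770 genes). Called genes made up 0.0745% of all genes in females, 0.00677% in males, 0.0339% for the mean and 0.0% for the difference, so 0 of 3 is near the background. All 3 had unadjusted p-values above 0.05 in these comparisons, with 0 calls by voom as well. The 95% intervals below cover the spread between libraries under this scaling alone.

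Cplx1 was at 49.6, 68.9 and 56.6 in cKO females, against 57.1, 51.1 and 53.5 in control females. The cKO female values lay on both sides of the controls. In cKO males it was at 41.8, 44.2 and 41.1, against 55.2, 45.8 and 49.8 in control males. Every cKO male was below every control male, as was the case for 4.83% of all genes. The log2 difference was 0.10 in females (95% interval -0.15 to 0.36, adjusted p = 0.581) and -0.24 in males (-0.49 to 0.01, adjusted p = 1). The male effect minus the female effect was -0.34 (95% interval -0.70 to 0.02, adjusted p = 0.588). The female direction turned with the scaling, to -0.36 on the deposited FPKM and -1.08 with median-of-ratios over all genes and no subtraction, and with the libraries, to -0.02 without cKO female 2 and -0.12 without cKO females 2 and 3. Nearly all of the gene's FPKM, 99.1% to 100% per library, belonged to Cplx1-201, which has 4 exons and carries the seed match shown above.

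Nsf was at 88.6, 87.0 and 95.4 in cKO females, against 91.7, 84.6 and 95.2 in control females. In cKO males it was at 48.5, 65.6 and 47.6, against 50.7, 50.2 and 50.9 in control males. Genotype groups overlapped in both sexes, and cKO male 2 was the highest male. The log2 difference was -0.00 in females (95% interval -0.25 to 0.25) and 0.08 in males (-0.17 to 0.32). The female value depended on the scaling: it was -1.09 with median-of-ratios over all genes and no subtraction, -0.51 with no scaling after subtraction, -0.50 with voom on estimated reads, -0.36 on the deposited FPKM and -0.21 without subtraction, none of them called, with a lowest adjusted p of 0.0776.

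Syt1, the second gene with a seed match, was at 129.5, 155.5 and 147.7 in cKO females, against 146.1, 120.5 and 137.9 in control females. In cKO males it was at 68.6, 90.3 and 74.0, against 90.2, 81.2 and 81.8 in control males. The groups overlapped in both sexes. The log2 difference was 0.10 in females (95% interval -0.17 to 0.36) and -0.13 in males (-0.39 to 0.14). The female value was -0.27 on the deposited FPKM and -0.05 without cKO females 2 and 3, none of them called.

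**Figure D3:**
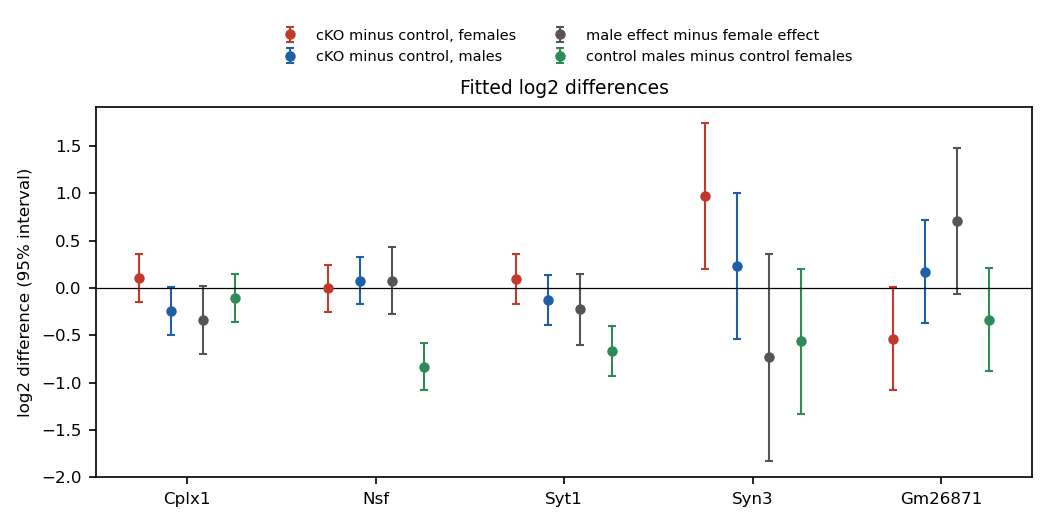
Fitted log2 differences with 95% intervals for the 4 target genes and Gm26871: cKO minus control in females and in males, the male effect minus the female effect, and control males minus control females. Syn3 comes from the fit without a filter on low values. For Cplx1, Nsf and Syt1 the female and male intervals all include 0, and the sex intervals of Nsf and Syt1 lie below 0.

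Of the 3 targets tested, 2 were called between the sexes. In control males against control females, Nsf and Syt1 were called lower and Cplx1 was not, in a comparison where 12.2% of all genes were called, 5.42% lower and 6.8% higher. Nsf averaged 50.6 ± 0.346 in control males and 90.5 ± 5.38 in control females (SD, n = 3 each), and its log2 difference was -0.83 ± 0.11 (standard error; limma adjusted p = 0.00303). Syt1 averaged 84.4 ± 5.03 in control males and 134.8 ± 13.1 in control females, with a log2 difference of -0.67 ± 0.12 (adjusted p = 0.00763). For Cplx1 the log2 difference was -0.10 ± 0.11 (adjusted p = 0.619). Each call held when any library was left out, with adjusted p up to 0.0190 for Nsf and up to 0.0404 for Syt1.

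The cKO mice showed the same order. Nsf averaged 53.9 ± 10.1 in cKO males and 90.4 ± 4.43 in cKO females, and Syt1 77.6 ± 11.3 in cKO males and 144.2 ± 13.4 in cKO females. All 6 males were below all 6 females for both genes, at 47.6 to 65.6 against 84.6 to 95.4 for Nsf and 68.6 to 90.3 against 120.5 to 155.5 for Syt1. Of all genes, 8.58% had this pattern. Among controls, sex cannot be told apart from library background, which was lower in every control male than in every control female. The cKO male 2 library, whose background of 0.286 was the highest of the males, also had the highest Nsf of the males. Its Syt1 of 90.3 was level with the 90.2 of control male 1, at a background of 0.0274. The background of cKO male 2 was above that of control females 1 and 2, at 0.180 and 0.0863. Its Nsf of 65.6 was below their 91.7 and 84.6. The part of background in these levels was not tested. With no scaling after subtraction the log2 values were -0.85 for Nsf (adjusted p = 0.122) and -0.69 for Syt1 (adjusted p = 0.137). With median-of-ratios scaling over all genes and no subtraction they were -0.21 and 0.31, and on the deposited FPKM Syt1 was at -0.35 (adjusted p = 0.272), so these settings ended the calls and 1 of them turned the direction of Syt1.

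Markers of the cells in the tissue moved with this contrast, in which 5.42% of all genes were called lower and 6.8% higher. The summed level of 6 pyramidal neuron markers was 235 to 260.9 in control males and 302 to 316.9 in control females, with 1 of the 6 called lower. Of 6 interneuron markers 2 were called lower, and of 4 dentate granule cell markers 1. Of 5 astrocyte markers 3 were called higher in control males, Aldoc, Gfap and Aqp4, at log2 differences of 0.74, 0.94 and 0.53. Their summed level was 306.7 to 366.2 in control males and 203.5 to 213.3 in control females. Of 6 oligodendrocyte markers 2 were called higher, among them the myelin gene Mbp, with sums of 507.9 to 645.2 in control males and 258.3 to 356.6 in control females. With median-of-ratios over all genes and no subtraction the pyramidal median turned to 0.22, against -0.31. The interneuron and dentate granule medians also turned, to 0.29 and 0.08, against -0.33 and -0.52. The astrocyte and oligodendrocyte medians stayed above 0, at 1.35 and 1.12. No marker of these lists was called in that setting or with no scaling after subtraction. Voom called 0 of the pyramidal, 1 of the interneuron, 1 of the dentate granule, 3 of the astrocyte and 2 of the oligodendrocyte markers. A lower marker level in bulk tissue does not tell fewer neurons from less RNA per neuron. The part of these markers in the difference of Nsf and Syt1 was not tested.

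**Figure D4:**
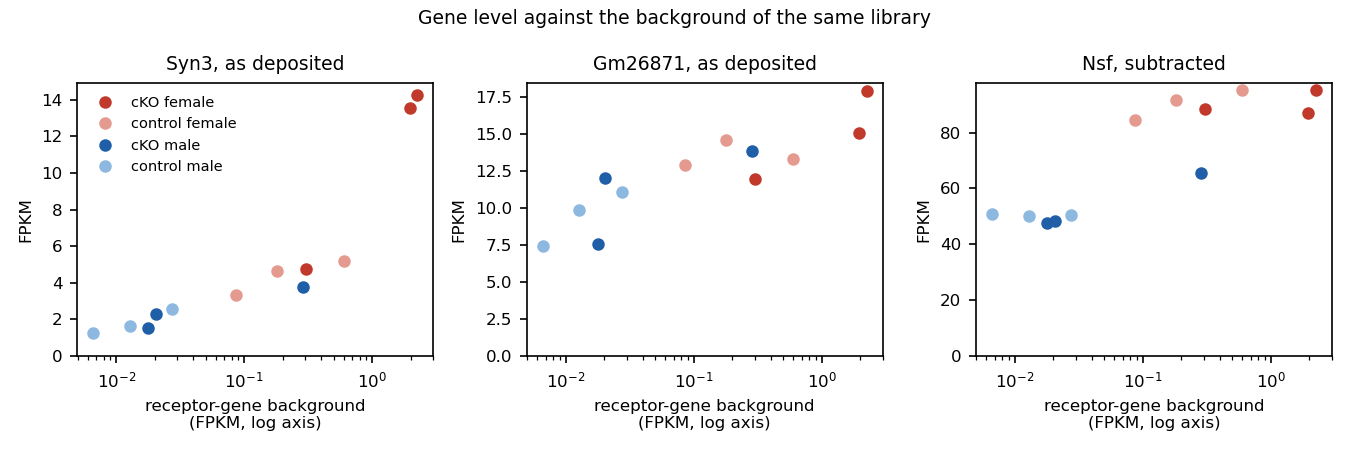
Deposited FPKM of Syn3 and Gm26871 and background-subtracted FPKM of Nsf in each library, against the receptor-gene background of that library on a log axis. Syn3 is highest in the 2 cKO females of highest background, at 1.97 and 2.25, and the males with low Nsf lie at the low end of the background.

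Syn3 was the least abundant target in FPKM, and its level in cKO females was the farthest from that of controls. Its deposited FPKM was 4.74, 13.5 and 14.3 in cKO females, against 4.65, 3.31 and 5.21 in control females. It was 2.30, 3.74 and 1.52 in cKO males, against 2.59, 1.63 and 1.25 in control males. Only cKO females 2 and 3, the libraries of highest background, stood out, and cKO female 1 lay within the control females. The subtracted scale divides by the length of the joined exons, so it also differs from the deposited sum over transcripts. On it Syn3 was at 0.926, 3.10 and 2.69 in cKO females, against 0.864, 0.655 and 0.885 in control females. In males the subtracted level was 0.4995, 0.792 and 0.350 in cKO, against 0.531, 0.362 and 0.257 in controls. Here every cKO female was above every control female, as for 9.65% of all tested genes, cKO female 1 by a small margin, and the males overlapped.

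In the fit without a filter on low values, the log2 difference of Syn3 was 0.97 ± 0.35 in females (limma adjusted p = 0.120) and 0.24 ± 0.35 in males (adjusted p = 1), with a male minus female difference of -0.73 (adjusted p = 0.594). On the deposited FPKM the female value was 1.09 (adjusted p = 0.0493), in a fit that called 10452 of 43399 genes and whose median over all genes was 0.89. Over the 3 alternative settings in which Syn3 had a value, the female value ran from 0.40 to 1.23. The limma adjusted p ran from 0.0493 to 0.185. In the subtracted fit without a filter, leaving out cKO female 1 gave 1.38 in females (limma adjusted p = 0.00111). That left the 2 libraries of highest background as the group, and the filtered fit then called 5557 of 14770 genes. An exact permutation test, added after the values were seen, gave p = 0.1 in females, the smallest possible, and 0.5 in males on the subtracted FPKM, and 0.04 over both sexes. The p over both sexes rose to 0.055 to 0.135 when a control female, cKO male 1 or 2, or control male 2 or 3 was left out. It was 0.02 to 0.035 when a cKO female, cKO male 3 or control male 1 was left out. These p-values are not adjusted over genes. On the deposited FPKM p was 0.2 in females, 0.6 in males and 0.085 over both sexes. Genes on the other strand, Timp3 among them, lie within the Syn3 locus, and whether strand was used in counting is unknown.

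The excess in these libraries lay mostly outside the full-length Syn3 message. Syn3-201, with 14 exons, had a deposited FPKM of 1.76, 2.65 and 2.47 in cKO females, against 2.12, 1.68 and 1.67 in control females. The other 5 transcripts together had 2.98, 10.9 and 11.8 in cKO females, against 2.54, 1.62 and 3.54 in control females. Syn3-201 thus held 37.2%, 19.6% and 17.3% of the gene's FPKM in cKO females, against 45.5%, 50.9% and 32.0% in control females. It held 58.5%, 32.3% and 60.8% in cKO males, against 63.3%, 65.8% and 74.6% in control males. The lowest shares were in the cKO females of highest background, and cKO male 2, the male of highest background, had the lowest share of the males. The largest part of the excess was in Syn3-202, with 7 exons, at 1.05, 5.47 and 5.25 in cKO females, against 0.618, 0.403 and 1.25 in control females. Its log2 difference was 2.06 (adjusted p = 0.0978) and that of Syn3-201 was 0.69 (adjusted p = 0.155), next to a median of 0.67 over all transcripts.

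Transcripts of Nsf showed a like pattern. Nsf-202, with 21 exons, held 93.0%, 75.3% and 75.96% of the gene's FPKM in cKO females, against 90.9%, 91.5% and 89.3% in control females. In cKO males it held 88.3%, 87.7% and 91.4%, against 87.3%, 94.0% and 91.9% in control males. The 7 transcripts annotated as retained introns summed to 15.8, 39.5 and 40.0 FPKM in cKO females, against 22.4, 19.4 and 24.7 in control females. The cKO females 2 and 3 were again the ones apart. On the scaled values Nsf-202 was at 103.2 to 141.1 in cKO males and 185.1 to 203.8 in cKO females, and at 108.5 to 110.6 in control males and 183.5 to 206.5 in control females. Its log2 difference between control males and control females was -0.84 (limma adjusted p = 0.00559), in a comparison where 1.15% of transcripts were called.

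Syt1 was split between isoforms in a way that differed from library to library. Syt1-202 and Syt1-201 have 12 and 11 exons, share 9 of them and have the same coding sequence of 1266 bases, and their lengths of 4820 and 4745 bases differ by 75. Both carry the seed match. Syt1-202 held 25.1%, 40.1% and 9.39% of the sum of both in cKO females, against 16.9%, 22.0% and 14.8% in control females. It held 0.222%, 91.4% and 23.1% in cKO males, against 91.3%, 24.9% and 0.176% in control males. The males of either genotype thus ranged from nearly all Syt1-201 to nearly all Syt1-202. Their sum was 225.7, 169.6 and 162.6 FPKM in cKO females, against 280, 233.1 and 239.6 in control females. It was 113.6, 154.3 and 123.4 in cKO males, against 151.4, 135.4 and 133.4 in control males. The sum varied far less among males than the split did, and the split between isoforms that share their coding exons is uncertain. Syt1-206, a processed transcript of 8 exons, averaged 9.71% of the gene's FPKM in control females and 32.75% in control males. Its log2 difference between control males and control females was 1.38 (limma adjusted p = 0.241), opposite in sign to the gene. Those of Syt1-201, Syt1-202, Syt1-203 and Syt1-205 were -1.83, -1.51, -0.54 and 0.12, and none was called.

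**Figure D5:**
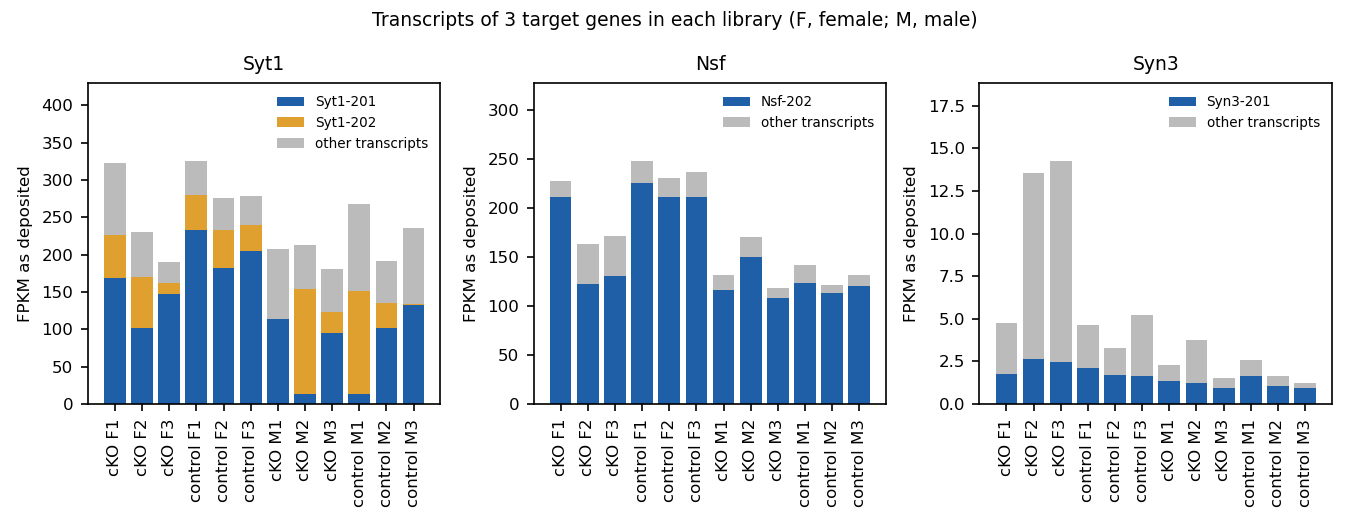
Deposited FPKM of Syt1, Nsf and Syn3 in each library, stacked by transcript. The Syt1 bars of cKO male 2 and control male 1 are mostly Syt1-202, at 140.9 and 138.2 FPKM, and the Syn3 bars of cKO females 2 and 3 are mostly transcripts other than Syn3-201.

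Of the 25 annotated transcripts of the 5 genes, 14 passed the filter on low values. None was called between cKO and control in either sex, in the mean or in the difference, where 0.107%, 0.00746%, 0.0622% and 0.0323% of all 40218 transcripts were called. The lowest adjusted p was 0.0978, for Syn3-202 and for the retained-intron transcript Nsf-203 in females.

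Relatives and partners of the targets were read in the same fits. Of 21 paralogs (complexins, synapsins and synaptotagmins) 16 were tested and none was called by limma between cKO and control, with 6 at an unadjusted p under 0.05 in females and 2 in males and none called by voom. Of all genes tested, 4178 of 14770, or 28.3%, were under this p in females and 356, or 2.41%, in males. On the deposited FPKM 1 paralog was called higher and 1 lower in females, where 9846 and 606 of 43399 genes were. The median log2 difference was 0.06 in females and -0.03 in males, next to 0.00 and 0.03 over all genes. Syt10, which has been linked to release of IGF-1 in the olfactory bulb, averaged 10.2 in cKO females and 6.48 in control females (log2 difference 0.57, adjusted p = 0.118), and 8.18 in cKO males and 5.82 in control males (0.46, adjusted p = 1). Syt17 averaged 1.82 in cKO females and 3.81 in control females (-0.91, adjusted p = 0.118). Cplx2, the most abundant complexin here, averaged 123.7 in cKO females and 129.9 in control females (-0.07), and 108.7 in cKO males and 127.0 in control males (-0.22).

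All 24 partners in transmitter release were tested, and limma and voom called none between cKO and control, with 1 at an unadjusted p under 0.05 in females and 0 in males. Their median log2 difference was -0.04 in females and -0.02 in males. The female count and median moved with the setting. On the deposited FPKM 6 of the 24 were called lower, where 606 of 43399 genes were. The list median was then -0.33, where all genes had 0.89. With voom on estimated reads the median was -0.36 and 22 of 24 were below 0, and with median-of-ratios over all genes and no subtraction it was -1.02, next to 0.35 over all genes, and 24 of 24 were below 0. The vesicle SNARE Vamp2 averaged 20.7 in cKO females and 30.4 in control females (-0.53, adjusted p = 0.118). Between control males and control females, 7 of the 24 were called lower and 1 higher, next to 5.42% and 6.8% of all genes. The lower ones were the vesicle proteins Syp, Sv2a, Syngr1 and Syngr3, the priming factor Unc13a, the syntaxin-binding Stxbp5 and the Nsf adaptor Napa, which recruits Nsf to SNARE complexes. Syp was at -0.65 (adjusted p = 0.00844), Sv2a at -0.75 (0.0110) and Napa at -0.34 (0.0106). The higher one was the active zone scaffold Rims1, at 0.57 (0.00903). With median-of-ratios scaling over all genes and no subtraction the list's median turned to 0.22, against -0.35, and 0 were called lower. With no scaling after subtraction 0 were called lower as well, and on the deposited FPKM 2, where 129 of 43399 genes were.

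The microRNA pathway showed no call between cKO and control by limma or voom in its 12 tested genes of 13, with 1 at an unadjusted p under 0.05 in females and 0 in males. The nuclear processing enzyme Drosha averaged 7.68 in cKO females and 8.31 in control females (-0.11, adjusted p = 0.565), and the Argonaute gene Ago2 3.57 in cKO females and 4.12 in control females (-0.17, adjusted p = 0.424). Between control males and control females 5 of the 12 were called lower, next to 5.42% of all genes. They were the Argonautes Ago1 and Ago2, the silencing scaffolds Tnrc6b and Tnrc6c, and Xpo5, which exports hairpins from the nucleus. Their log2 differences ran from -0.59 for Tnrc6c to -0.33 for Ago1. The list's median turned to 0.16, against -0.38, with median-of-ratios scaling over all genes and no subtraction. Under that setting, with no scaling after subtraction, on the deposited FPKM and with no filter on low values 0 of the list were called, with quantile normalization 1 and without subtraction 2.

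Genes with an 8-letter match to the miR-137 seed, AGCAATAA, made up 4.08% of genes with a 3′ UTR, and 504 of 857 were tested. Their median log2 difference was -0.04 in females and -0.01 in males, next to -0.03 and 0.00 over all protein-coding genes tested. By limma 1 of the 504 was called in females, lower, or 0.198%, and none in males. Of the protein-coding genes tested, 0.0637% were called in females and 0.0091% in males, in either direction. In females and males 107 and 21 of the 504 were below an unadjusted p of 0.05. Those are 21.2% and 4.17% of the 504, next to 22.4% and 2.58% of the 10991 protein-coding genes tested. There were 0 such calls by voom.

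Across the 12 libraries the gene whose log2 level ran most like Nsf was Sorcs3 (Pearson r = 0.993), like Cplx1 Myo5a (r = 0.956) and like Gm26871 Lig3 (r = 0.957). The next most alike were Atrn, Tspyl4, Nt5dc3 and Nell2 for Nsf. For Cplx1 they were Dnmt1, Ttc9, Ficd and Dgcr2, and for Gm26871 Mtg1, Gm43808, Strada and Gm42772. Opcml, Ppm1l, Ina and Tmem245 were among the 5 most like Syt1. The points share sex, library and background, and these values describe the 12 libraries alone.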

How the data were processed

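Per the labels, hippocampal RNA came from a miRVANA kit and ribosomal RNA was removed with the ScriptSeq Complete Gold library kit. The submitters' processing notes name HISAT2 2.0.4, StringTie and GRCm38.p6. Trimming, use of strand and annotation release are unknown. The authors deposited, per library, the FPKM and the coverage of 137862 transcripts. No read counts were used: dividing FPKM by coverage gave the mapped bases, and 1 read was taken as 76 bases.

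Bases were summed per gene and divided by the length of the joined exons. The median of 1461 receptor genes was subtracted, and values were scaled by median-of-ratios over 5373 protein-coding genes (mean 5 or more). The filter on low values asked for a mean of 1 or more, and for 1 or more in 3 libraries, and kept 14770 of the 54495 genes matched to GENCODE M21. limma 3.58.1 (trend, robust; R 4.3.3) fitted the 4 group means on log2(FPKM + 0.5), which makes the change of a low gene smaller, with Benjamini-Hochberg adjustment and a two-sided threshold of 0.05. Transcripts were fitted likewise on scaled deposited FPKM. Tests were checked on simulated data with noise drawn independently for each gene. Those data held no background shared across genes, so its effect on the tests was not checked. Mir137 was tested by exact permutation. Members and gene lists were chosen with earlier results of these data known. Named genes were the 5 members, Atrx, the genes around the hairpin, the 5 most alike genes per target (1 is not reported here), and from each list up to 6 genes of smallest p for the mean of both sexes and any called gene. Marker lists were fixed likewise. Alternatives covered subtraction, scaling, pseudocount, filter, test, replicate block and left-out libraries. For Gm26871 and for the permutation and left-out values of Syn3 they were added after seeing the data.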

Additional observations from a re-analysis of the deposited data

How the results depend on the processing

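Depth, 3 libraries per group and a background tied to sex limit these values: Mir137 lay under 3 reads in each library and the sex contrast shares its split with the background. Values here are log2 differences or counts of calls. None of Cplx1, Nsf, Syt1 and Gm26871 passed the threshold between cKO and control under any alternative that kept all 12 libraries, and the cause of the changes of sign was not tested. The alternatives shift the median of all genes in females from 0.00 to 0.45 without subtraction, 0.35 with median-of-ratios over all genes, -0.46 without scaling and 0.89 on deposited FPKM.

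With median-of-ratios over all genes and no subtraction, Cplx1 was at -1.08 in females, 0.59 for the male minus female effect and 0.52 between control sexes. Nsf was at -0.16 in males, -0.63 for the mean and -0.21 between control sexes, Syt1 at -1.0 in females, 0.56 for the male minus female effect and 0.31 between control sexes, and Gm26871 at -0.03 in males and 0.11 between control sexes. Genes called were 0 in females, 0 in males, 0 for the mean and 78 between control sexes, against 11, 1, 5 and 1805 in the analysis reported above. Without subtraction Cplx1 was at -0.10 and Syt1 at -0.13 in females, Nsf at -0.08 for the mean, and Gm26871 at 0.30 in females, -0.09 for the male minus female effect and 0.26 for the mean, with 5, 3 and 10 genes called in females, in males and for the mean. With no scaling after subtraction Cplx1 was at -0.40 in females and 0.15 for the male minus female effect, Nsf at -0.23 for the mean and -0.85 between control sexes, and Syt1 at -0.41 in females, 0.27 for the male minus female effect and -0.69 between control sexes. Counts were then 4 in females, 0 in males, 0 for the mean and 15 between control sexes.

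On the deposited FPKM Cplx1 was at -0.36 in females, as was its transcript Cplx1-201, and at 0.11 for the male minus female effect. Nsf was at -0.14 for the mean, Syt1 at -0.27 in females, 0.08 for the male minus female effect and -0.35 between control sexes, Syn3 at 1.09 in females, and Gm26871 at 0.12 in females and 0.16 for the mean. This setting called 10452 genes in females, 0 in males and 341 between control sexes, and 6 transcripts in males and 25 between control sexes, against 3 and 464. Voom on estimated reads gave Cplx1 -0.35 in females and 0.07 for the male minus female effect, Nsf -0.23 for the mean, Syt1 -0.40 in females and 0.24 for the male minus female effect, and Gm26871 0.08 in females and 0.15 for the mean, with 3 genes called in females and 2 in males. Quantile normalization called 0 genes in males, and no filter on low values called 31 in females and 722 between control sexes. Background subtraction left a Mir137 difference of 0 in females. Without cKO females 2 and 3 together, Cplx1 was at -0.12 and Syt1 at -0.05 in females and Gm26871 at 0.04 for the mean, with 9 genes called for the mean and 3374 between control sexes.

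Whether libraries of the same number form pairs cannot be told from 3 libraries per group. Deviations of same-numbered libraries correlated at 0.128, -0.281 and 0.353 in females and 0.051, -0.095 and 0.195 in males. Not every library correlated best with its own number, and the main fit has no block. With the replicate block 0 genes were called in females, Atrx included (-0.87, adjusted p = 0.135), 0 in males and 0 for the mean, and 8, 5, 3 and 5 transcripts in females, in males, for the male minus female effect and for the mean, against 43, 3, 13 and 25.

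Leaving out each library in turn gave Cplx1 -0.02 to 0.21 in females and Syt1 -0.07 to 0.03 for the mean. Nsf was at -0.05 to 0.03 in females, -0.07 to 0.16 in males, -0.07 to 0.16 for the male minus female effect and -0.04 to 0.08 for the mean. Syn3 was at 0.72 to 1.38 in females, -1.15 to -0.48 for the male minus female effect and 0.48 to 0.81 for the mean, with 1.38, -1.15 and 0.81 all coming without cKO female 1 (adjusted p = 0.00111, 0.0248 and 0.00375). Gm26871 was at -0.76 to -0.33 in females and 0.51 to 0.93 for the male minus female effect. Nsf-202 was at -0.06 to 0.02 in females and -0.08 to 0.15 in males, Syn3-201 at -0.14 to 0.12 in males, and Gm26871-202 at -0.07 to 0.30 in males and -0.15 to 0.05 between control sexes. Mir137 differed by -0.00869 to 0.207 FPKM in females and -0.0165 to 0.0891 FPKM in males. Genes called ran from 1 to 5557 in females, 1 to 2 in males, 0 to 2948 for the male minus female effect, 3 to 4212 for the mean and 558 to 2784 between control sexes. Transcripts called ran from 18 to 22451, 2 to 9, 4 to 14994, 11 to 19570 and 93 to 649 in the same order. The highest gene counts came without cKO female 1 in each comparison other than that in males.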
